A study of Mus musculus with 18 samples.

Results

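The genes for the vascular endothelial growth factors (VEGFs) and their receptors were measured in cancer cells sorted from spheroids that had been grown with or without fibroblasts. The 9 genes were the ligands Vegfa, Vegfb, Vegfc and Pgf, the tyrosine kinase receptors Kdr, Flt1 and Flt4, and the neuropilin co-receptors Nrp1 and Nrp2. All 9 were matched by symbol in both count tables, which list 24455 genes for one line and 24532 for the other. The family was chosen by the Kdr counts: Kdr had counts in LLC1 cells after coculture and almost none in 168FARN cells. The Kdr values are therefore given as a description with no test, and the tests below concern the other 8 genes.

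The cells came from 2 mouse lines, 168FARN, a breast cancer line, and LLC1, the Lewis lung carcinoma line. Each line was tagged with green fluorescent protein (GFP), grown in hanging drops and then for a week on a shaker, dissociated and sorted, and every group had 3 libraries, 18 in all. The 168FARN cells were grown alone, with MMTV-CAF, which are cancer-associated fibroblasts from tumours of MMTV-PyMT mice, that carried a control guide (sgNS, labelled WT), or with MMTV-CAF in which Prrx1 was deleted by CRISPR/Cas9 (sgPrrx1). The LLC1 cells were grown alone, with WT or with sgPrrx1 wound healing fibroblasts, taken from mouse skin at day 10 after wounding. Cocultures held 3 fibroblasts per cancer cell. The cancer line, the fibroblast type and the count table change together, so a difference between the lines cannot be assigned to any of them: the 3 cannot be told apart. The labels do not say that the replicates were separate cultures, and the p-values then measure the spread between these libraries, which may be technical. Fibroblasts alone were not analysed here.

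The deletion of Prrx1 was made in fibroblasts, which were not sequenced here, so the Prrx1 counts of these libraries check no deletion. Prrx1 was present at 88.2 ± 1.3 CPM (counts per 1e6 of the library's TMM-scaled total; SD, n = 3) in 168FARN alone, 129 ± 1.32 with WT and 112 ± 1.12 with sgPrrx1 fibroblasts, and at 206 ± 24.5, 218 ± 6.63 and 177 ± 55.6 CPM in the matching LLC1 groups. The libraries held 48315037 to 68933002 counts for 168FARN and 66129117 to 103997557 for LLC1. LLC1 sgPrrx1 replicate 3 stood apart: across genes its log2 CPM correlated at r = 0.949 and 0.950 with the other sgPrrx1 libraries, which correlated at r = 0.991 with each other. The variation between replicates that edgeR estimated (the biological coefficient of variation) fell from 0.228 to 0.112 for LLC1 when that library was left out, against 0.0728 for 168FARN. The main LLC1 values are given with and without it. Of 7 epithelial markers, Krt8 alone exceeded 1 CPM in 168FARN alone and none did in LLC1 alone, and Epcam was at 0 in the 3 libraries of each.

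VEGF-A binds the receptors VEGFR1 (Flt1) and VEGFR2 (Kdr) on endothelial cells, and its signal through VEGFR2 drives the sprouting and permeability of blood vessels. VEGF-B and placental growth factor (Pgf) bind VEGFR1, while VEGF-C acts through VEGFR3 (Flt4), the receptor of lymphatic vessels. The neuropilins bind VEGFs and class 3 semaphorins and present them to the kinase receptors or to plexins. Vegfa is a textbook target of hypoxia-inducible factors, and many tumour cells make VEGF-A while the receptors are best known from the vessel wall.

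The stretches of 250 bases before the transcription start are shown for the genes on which the results turn: Kdr, which had counts in LLC1 coculture, and Vegfa, Vegfc and Nrp1, whose changes differed between the lines. They are RefSeq promoters of the mouse build GRCm38.p6 (mm10), written from 5′ to 3′ on the strand of the gene, at chr5:75978456-75978705 (minus strand) for Kdr, chr17:46032378-46032627 (minus strand) for Vegfa, chr8:54077282-54077531 (plus strand) for Vegfc and chr8:128358823-128359072 (plus strand) for Nrp1. Capitals mark the GC box GGGCGG, a binding motif of SP1-type factors, and the hypoxia-response core ACGTG, each searched on both strands.
Kdr: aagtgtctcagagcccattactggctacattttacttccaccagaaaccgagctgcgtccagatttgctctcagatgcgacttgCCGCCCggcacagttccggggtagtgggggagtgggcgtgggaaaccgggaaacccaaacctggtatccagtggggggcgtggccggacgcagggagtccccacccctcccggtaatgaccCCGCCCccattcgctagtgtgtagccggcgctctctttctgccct
Vegfa: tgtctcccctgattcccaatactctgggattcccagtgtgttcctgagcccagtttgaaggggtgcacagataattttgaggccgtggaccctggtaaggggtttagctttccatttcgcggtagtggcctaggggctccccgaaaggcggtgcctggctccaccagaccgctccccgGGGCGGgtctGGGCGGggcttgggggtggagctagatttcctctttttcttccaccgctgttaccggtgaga
Vegfc: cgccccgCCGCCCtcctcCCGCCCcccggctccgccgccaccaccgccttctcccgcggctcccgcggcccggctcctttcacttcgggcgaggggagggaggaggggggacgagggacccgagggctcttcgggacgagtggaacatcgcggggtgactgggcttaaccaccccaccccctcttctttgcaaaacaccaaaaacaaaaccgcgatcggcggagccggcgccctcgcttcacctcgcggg
Nrp1: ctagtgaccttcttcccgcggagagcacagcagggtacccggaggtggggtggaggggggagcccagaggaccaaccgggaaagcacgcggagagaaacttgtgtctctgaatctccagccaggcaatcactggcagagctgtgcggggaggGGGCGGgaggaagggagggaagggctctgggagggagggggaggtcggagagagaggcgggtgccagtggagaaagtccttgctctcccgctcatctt
A GC box was found in the window of 10 of 11 listed starts of the 9 genes, and 32.7% of the 32851 promoters in the table held one. The hypoxia core was found in 1 of the 11 windows, that of the second start of Vegfa, against 16.6% of all promoters. The printed windows held 2 GC boxes for Kdr, Vegfa and Vegfc and 1 for Nrp1, with no hypoxia core in any of the 4. A match is a description of the letters in this window.

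In 168FARN cells the 4 ligands rose with WT fibroblasts. Vegfa, the main angiogenic ligand, was at 84.8, 82.1 and 80.9 CPM in the libraries of cells alone, 154, 158 and 161 CPM with WT and 85.7, 85.6 and 85.2 CPM with sgPrrx1 fibroblasts. All 3 WT libraries lay above the other 6. Its log2 fold change was 0.93 ± 0.03 (SE) for WT coculture against alone (1.91-fold, adjusted p = 7.11e-10) and -0.88 ± 0.03 for sgPrrx1 against WT (adjusted p = 2.61e-09). Against cells alone, the sgPrrx1 value of 0.05 ± 0.03 did not pass the test (adjusted p = 0.183, 95% interval -0.01 to 0.11), although the groups did not overlap. These and the following adjusted p-values come from edgeR's quasi-likelihood test over all 13540 genes kept in 168FARN and 12873 in LLC1.

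Vegfc, the lymphangiogenic ligand, was at 2.47, 3.27 and 2.86 CPM in 168FARN alone, 4.97, 5.01 and 4.89 with WT and 3.40, 3.61 and 3.42 with sgPrrx1 fibroblasts. It rose by 0.78 ± 0.11 on the log2 scale with WT (adjusted p = 0.000104) and was lower with sgPrrx1 than with WT, by a log2 fold change of -0.51 ± 0.11 (adjusted p = 0.00210). Pgf, a ligand of VEGFR1, was at 5.84, 6.18 and 5.77 CPM alone, 9.51, 7.24 and 8.91 with WT and 6.21, 7.61 and 6.43 with sgPrrx1. The WT libraries of Pgf lay above those of cells alone, but WT replicate 2 was below sgPrrx1 replicate 2. Its log2 fold change was 0.53 ± 0.11 with WT (adjusted p = 0.00175) and -0.34 ± 0.11 for sgPrrx1 against WT (adjusted p = 0.0219). The second call was lost without WT replicate 1 (adjusted p = 0.102), WT replicate 3 (0.0634), sgPrrx1 replicate 1 (0.0761) or sgPrrx1 replicate 3 (0.0704), and when only these 2 groups were fitted (0.058).

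Vegfb, which binds VEGFR1, changed least among the ligands of 168FARN in the comparisons that include WT. Its 3 libraries of cells alone had 89.6, 85.5 and 88.5 CPM, against 97.7, 91.4 and 101 CPM with WT and 83.1, 82.1 and 89.0 CPM with sgPrrx1 fibroblasts. The rise of 0.14 ± 0.04 on the log2 scale with WT passed the test (adjusted p = 0.0144), but not without WT replicate 3 (adjusted p = 0.0587) or without alone replicate 2 (adjusted p = 0.0602). The difference between sgPrrx1 and WT, -0.19 ± 0.04, also passed (adjusted p = 0.00259). Against cells alone, neither Vegfb (-0.05 ± 0.04), Vegfc (0.27 ± 0.12) nor Pgf (0.19 ± 0.11) passed in the sgPrrx1 cocultures (adjusted p = 0.346, 0.0739 and 0.200). Vegfc passed without alone replicate 2 (adjusted p = 0.0243). The 3 comparisons within a line share libraries, so a high WT value enters the first and the second alike.

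**Figure D1:**
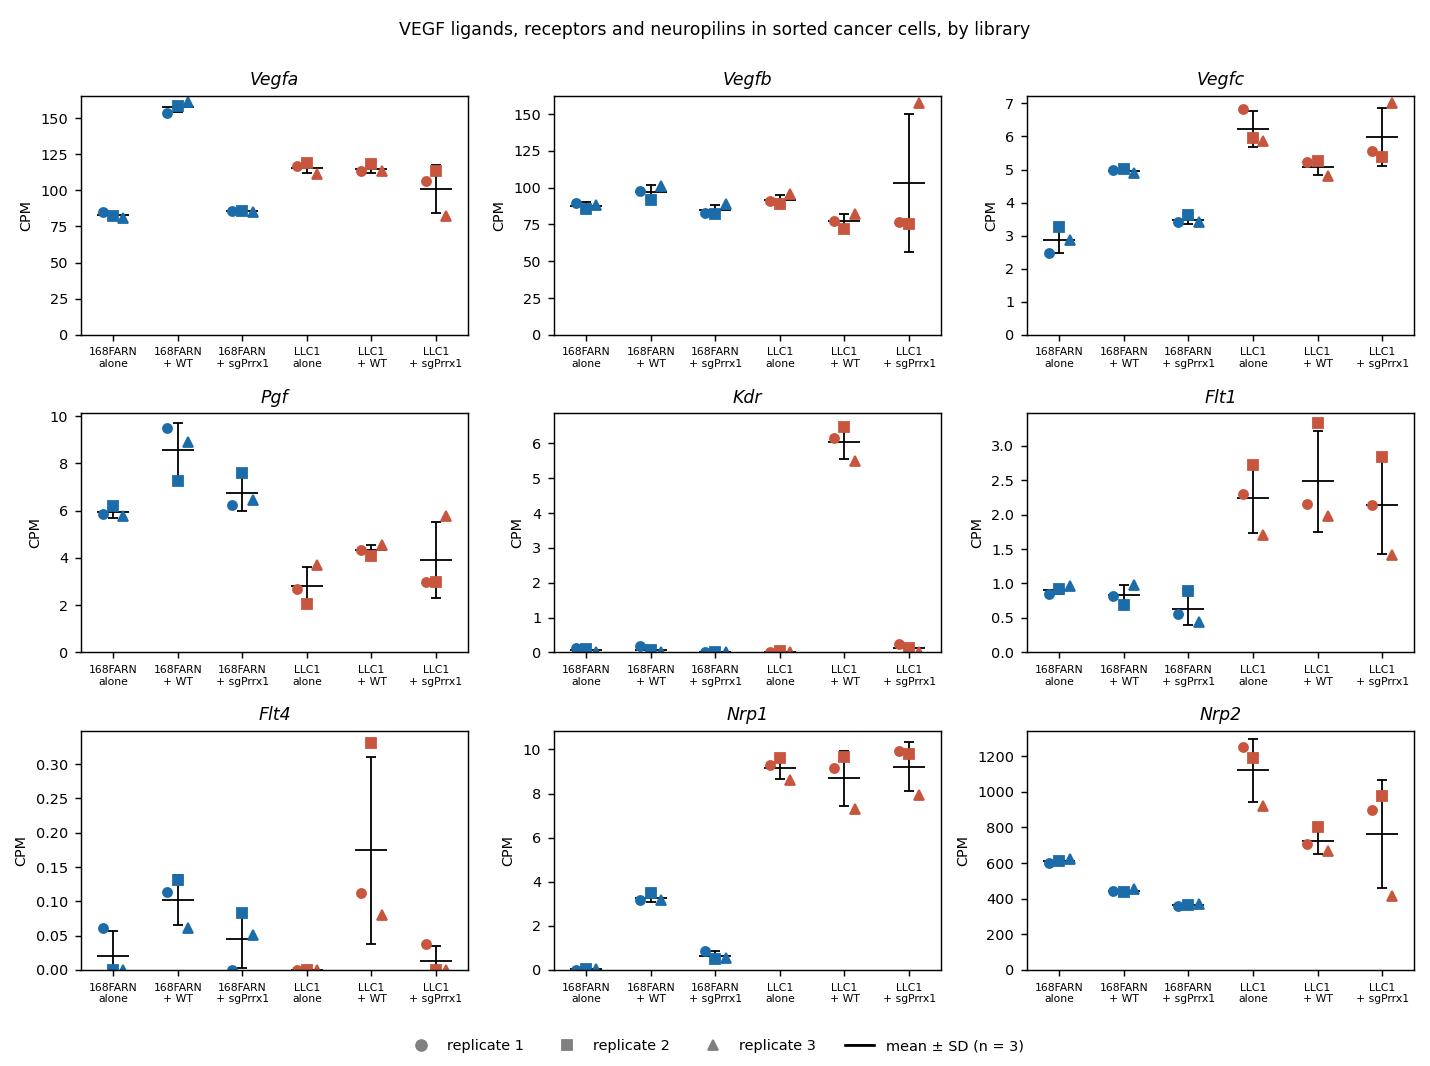
CPM of each gene (y axis, linear, from 0) in the 18 libraries, by group on the x axis; symbols are libraries, horizontal bars the mean and vertical bars the SD of 3. Vegfa of 168FARN stands at 154 to 161 CPM with WT fibroblasts and at 80.9 to 85.7 otherwise, and Kdr is above 1 CPM only in LLC1 with WT fibroblasts.

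Nrp1, a co-receptor of VEGF-A and of semaphorin 3A, went from almost no counts to a low level in 168FARN. Its counts were 0, 3 and 3 in the libraries of cells alone, 222, 239 and 157 with WT and 42, 30 and 33 with sgPrrx1 fibroblasts. Every WT library was far above the sgPrrx1 libraries, and those above cells alone. Summed over the libraries, 6 counts alone stood against 618 with WT, a depth-scaled ratio of 88.4 (95% counting interval 40.4 to 242), and against 105 with sgPrrx1, a ratio of 16.9 (7.52 to 47.2). These intervals cover counting error only. The fitted log2 fold changes were 6.38 ± 0.40 for WT against alone (adjusted p = 1.36e-07), 4.02 ± 0.49 for sgPrrx1 against alone (adjusted p = 5.26e-05) and -2.36 ± 0.25 for sgPrrx1 against WT (adjusted p = 1.24e-05).

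Nrp2, the co-receptor of VEGF-C and semaphorin 3F, was lower in both cocultures of 168FARN than in cells alone, where Nrp1 was higher, and both were lower with sgPrrx1 than with WT. It was the gene of the family with the highest CPM, at 598, 613 and 620.6 CPM alone, 441.5, 436 and 452 with WT and 359.6, 363 and 371 with sgPrrx1 fibroblasts. The 3 groups did not overlap. Its log2 fold change was -0.46 ± 0.02 with WT (adjusted p = 3.09e-08), -0.74 ± 0.02 with sgPrrx1 against alone (adjusted p = 1.14e-09) and -0.28 ± 0.02 for sgPrrx1 against WT (adjusted p = 1.89e-06).

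The kinase receptors stayed low in 168FARN. Flt1 was at 0.842, 0.919 and 0.968 CPM alone, 0.824, 0.686 and 0.974 with WT and 0.563, 0.886 and 0.440 with sgPrrx1 fibroblasts, and the groups overlapped in each comparison. Its log2 fold changes of -0.15 ± 0.27, -0.52 ± 0.28 and -0.38 ± 0.28 (WT against alone, sgPrrx1 against alone, sgPrrx1 against WT) did not pass, with adjusted p-values of 0.653, 0.144 and 0.266. The interval of the first ran from -0.74 to 0.45, which holds changes of moderate size in either direction. Without sgPrrx1 replicate 2, the highest of its group, the latter 2 passed, at -0.86 against alone (adjusted p = 0.0298) and -0.72 against WT (adjusted p = 0.0492). Flt4, VEGFR3, had 3, 0 and 0 counts alone, 8, 9 and 3 with WT and 0, 5 and 3 with sgPrrx1, too few to be tested. The summed 3 and 20 counts of alone and WT gave a depth-scaled ratio of 5.72 (95% counting interval 1.7 to 30.1), which was 3.45 without alone replicate 2, and at least 1.88 without alone replicate 1, which held the 3 counts, against a floor of 3 counts per library. Kdr had 6, 6 and 0 counts alone, 12, 4 and 0 with WT and 0 in each of the 3 sgPrrx1 libraries, where 3 counts would have been 0.0502 to 0.0626 CPM.

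Of the 8 genes other than Kdr, 7 passed the filter on low counts in 168FARN, Flt4 being left out. With WT fibroblasts 5 of the 7 rose and 1 fell, where 64.1% of all genes tested changed (33.4% higher, 30.7% lower). In sgPrrx1 against WT, 6 of the 7 were lower, where 60.0% of genes changed and 33.1% were lower. With sgPrrx1 against alone, Nrp1 rose and Nrp2 fell, 2 of 7, where 49.7% of genes changed (25.7% higher, 24.1% lower). The median log2 fold changes of the 7 were 0.53, -0.38 and 0.05 in these comparisons, and those of all genes 0.01, -0.03 and 0.00458.

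In LLC1 cells Vegfa did not pass the test in any comparison. It was at 117, 119 and 111 CPM alone, 113.5, 118 and 113 with WT and 106.5, 113.5 and 82.0 with sgPrrx1 wound healing fibroblasts, and alone and WT overlapped. Its log2 fold change for WT against alone was -0.01 ± 0.12 (adjusted p = 0.978), with an interval of -0.29 to 0.27; without sgPrrx1 replicate 3 it was 0.00311 ± 0.05, with an interval of -0.10 to 0.11. Both intervals leave out a rise of the size seen in 168FARN. For sgPrrx1 against WT the value was -0.19 ± 0.12 (adjusted p = 0.556) with all libraries and -0.07 ± 0.05 (adjusted p = 0.421) without replicate 3.

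Pgf of LLC1 was at 2.7, 2.06 and 3.68 CPM alone, 4.33, 4.07 and 4.55 with WT and 2.98, 2.98 and 5.79 with sgPrrx1 fibroblasts. The WT libraries lay above cells alone, and the highest value was sgPrrx1 replicate 3. The log2 fold change with WT was 0.62 ± 0.30 with all libraries (adjusted p = 0.258) and 0.63 ± 0.19 without that library (adjusted p = 0.0281). Against WT, sgPrrx1 gave -0.15 ± 0.30 (adjusted p = 0.856), and -0.54 ± 0.22 without replicate 3 (adjusted p = 0.140).

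Vegfb and Vegfc of LLC1 were lower with WT fibroblasts, with no overlap with cells alone. Vegfb was at 90.7, 88.8 and 95.7 CPM alone, 77.1, 72.1 and 82.2 with WT and 76.6, 75.6 and 157 with sgPrrx1, and Vegfc at 6.84, 5.96 and 5.88, then 5.21, 5.24 and 4.80, then 5.57, 5.39 and 7.0 CPM. In both genes sgPrrx1 replicate 3 was the highest of the 9 libraries. With all libraries the WT differences of -0.25 ± 0.26 for Vegfb and -0.29 ± 0.13 for Vegfc did not pass (adjusted p = 0.632 and 0.227). Without that library they were -0.24 ± 0.06 (adjusted p = 0.0105) and -0.28 ± 0.09 (adjusted p = 0.0322). Vegfb in sgPrrx1 coculture against alone changed direction with it, from 0.17 ± 0.26 (adjusted p = 0.707) with all libraries to -0.26 ± 0.07 (adjusted p = 0.0195) without.

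The neuropilins of LLC1 differed from those of 168FARN. Nrp1 was already present in cells alone, at 9.29, 9.60 and 8.62 CPM, and stayed at 9.14, 9.64 and 7.29 with WT and 9.93, 9.77 and 7.93 with sgPrrx1 fibroblasts. The groups overlapped, and WT against alone gave -0.08 ± 0.14 (adjusted p = 0.806; interval -0.40 to 0.24), and -0.06 ± 0.10 without sgPrrx1 replicate 3 (interval -0.30 to 0.17). Nrp2 was at 1250.3, 1188 and 921 CPM alone, 705, 804 and 665 with WT and 896, 975 and 413 with sgPrrx1. The WT libraries were all below cells alone, and sgPrrx1 replicate 3 was the lowest of the 9. The WT difference was -0.63 ± 0.29 with all libraries (adjusted p = 0.232) and -0.61 ± 0.11 without replicate 3 (adjusted p = 0.00280), and sgPrrx1 against WT was 0.07 ± 0.29 (adjusted p = 0.930) and 0.36 ± 0.12 (adjusted p = 0.0985).

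Kdr, the main signalling receptor of VEGF-A, had 0, 3 and 0 counts in LLC1 alone, 496, 488 and 408 with WT and 24, 10 and 0 with sgPrrx1 fibroblasts. In CPM these were at most 0.0368 alone, 6.16, 6.46 and 5.49 with WT, and 0.226, 0.117 and 0 with sgPrrx1. The 3 WT libraries stood far above the other 6. The summed counts of 3, 1392 and 34 gave depth-scaled ratios of 482 (95% counting interval 165 to 2342) for WT over alone, 44.4 (31.6 to 64.3) for WT over sgPrrx1 and 10.9 (3.42 to 55.3) for sgPrrx1 over alone. Single libraries moved these ratios. Without alone replicate 2, which held the 3 counts of its group, WT was at least 159-fold and sgPrrx1 at least 3.02-fold higher than alone, against a floor of 3 counts per library, and without alone replicate 1 the ratios were 321 and 7.23. Without sgPrrx1 replicate 1, WT over sgPrrx1 was 86.7 and sgPrrx1 over alone 5.56. These values chose the gene family and carry no test. In bulk RNA a level of a few CPM cannot tell few cells with much Kdr RNA from many cells with little.

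Flt4 had 0 counts in the 3 libraries of LLC1 alone, 9, 25 and 6 with WT and 4, 0 and 0 with sgPrrx1. The WT mean of 0.175 CPM was at least 4.64-fold higher than cells alone, taken against a floor of 3 counts per library, and at least 2.56-fold without WT replicate 2, which held 25 of the 40 counts. The 40 counts were 10.8 times those with sgPrrx1 after scaling for depth (95% counting interval 3.92 to 41.7), and 6.05 times without that library or 7.14 times without sgPrrx1 replicate 2. Without sgPrrx1 replicate 1, which held all 4 counts of its group, the WT mean was at least 4.03-fold higher. The filter on low counts left Flt4 out of the test. Flt1, which was present in every group, was at 2.30, 2.73 and 1.71 CPM alone, 2.15, 3.32 and 1.98 with WT and 2.14, 2.84 and 1.42 with sgPrrx1, with overlap throughout. Its log2 fold change with WT was 0.15 ± 0.31 (adjusted p = 0.841; interval -0.56 to 0.86), and 0.16 ± 0.25 without sgPrrx1 replicate 3.

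With all 9 LLC1 libraries, 0 of the 7 tested genes other than Kdr passed edgeR's test in any of the 3 comparisons, 0 had an unadjusted p under 0.05, and DESeq2 also called 0. Of all genes, 8.83% changed with WT, 4.32% with sgPrrx1 against alone and 0.0544% between sgPrrx1 and WT. Without sgPrrx1 replicate 3, 4 of the 7 changed with WT, Pgf higher and Nrp2, Vegfb and Vegfc lower, where 44.2% of genes changed (22.0% higher, 22.2% lower). For sgPrrx1 against alone, Vegfb was lower, 1 of 7, where 26.7% of genes changed and 14.2% were lower. For sgPrrx1 against WT, 0 of 7 passed, where 5.69% of genes changed. Of the 7, 2 had an unadjusted p under 0.05, for which the share of all genes is not given.

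**Figure D2:**
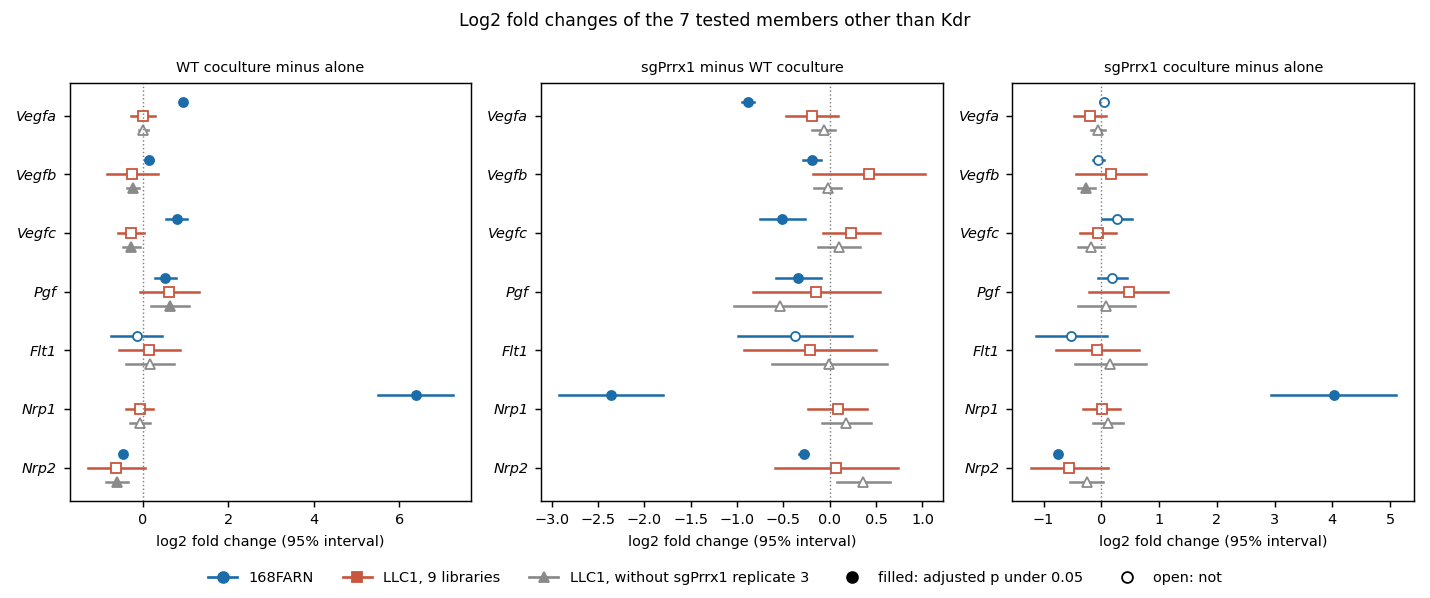
Log2 fold changes (x axis) with 95% intervals of the 7 tested genes other than Kdr (y axis) in 3 comparisons, for 168FARN, for LLC1 with 9 libraries and for LLC1 without sgPrrx1 replicate 3; filled symbols passed an adjusted p of 0.05. Vegfa, Vegfc and Nrp1 lie to the right of 0 for 168FARN in the first panel and to the left in the second, while the intervals of LLC1 hold 0 for Vegfa and Nrp1 in every panel.

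Whether the changes differed between the lines was tested in a fit of all 18 libraries, as the LLC1 log2 fold change minus that of 168FARN. For WT coculture against alone, 3 of the 7 genes differed, Nrp1 by -6.47 ± 0.42 (adjusted p = 4.09e-08), Vegfa by -0.94 ± 0.13 (adjusted p = 9.48e-05) and Vegfc by -1.08 ± 0.17 (adjusted p = 0.000175), where 29.4% of all genes differed. The first is the rise of Nrp1 from near 0 in 168FARN beside a level that held in LLC1. Without LLC1 sgPrrx1 replicate 3 these were -6.43 ± 0.37, -0.90 ± 0.05 and -1.03 ± 0.14, which also passed. Vegfb was added without it, at -0.35 ± 0.08 (adjusted p = 0.00151), 4 of 7, where 52.5% of genes differed. Pgf, which had higher CPM with WT in both lines, differed by 0.09 ± 0.33 (interval -0.61 to 0.79), and Nrp2, lower with WT in both, by -0.16 ± 0.32 (interval -0.84 to 0.51). Those intervals do not show that the lines acted alike.

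For sgPrrx1 against WT the same test gave 2.43 ± 0.30 for Nrp1 (adjusted p = 6.10e-05), 0.68 ± 0.13 for Vegfa (adjusted p = 0.00250) and 0.72 ± 0.17 for Vegfc (adjusted p = 0.00631), 3 of 7, where 19.3% of genes differed. All 3 genes were lower with sgPrrx1 than with WT in 168FARN, while the LLC1 values, none of which passed, were 0.08 for Nrp1, -0.19 for Vegfa and 0.23 for Vegfc (0.18, -0.07 and 0.10 without replicate 3). Without LLC1 sgPrrx1 replicate 3 the differences of Nrp1, Vegfa and Vegfc were 2.52 ± 0.25, 0.79 ± 0.05 and 0.59 ± 0.15, which also passed. Nrp2 was added without it, at 0.62 ± 0.12 (adjusted p = 0.000708), 4 of 7, where 44.5% of genes differed. Vegfb, at 0.58 ± 0.27 with all libraries (adjusted p = 0.151), passed without LLC1 sgPrrx1 replicate 1 (0.75, adjusted p = 0.0476) or replicate 2 (0.76, adjusted p = 0.0461), which leave replicate 3 as 1 of 2 in its group, and was 0.14 ± 0.08 without replicate 3. The WT libraries enter both tests.

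**Figure D3:**
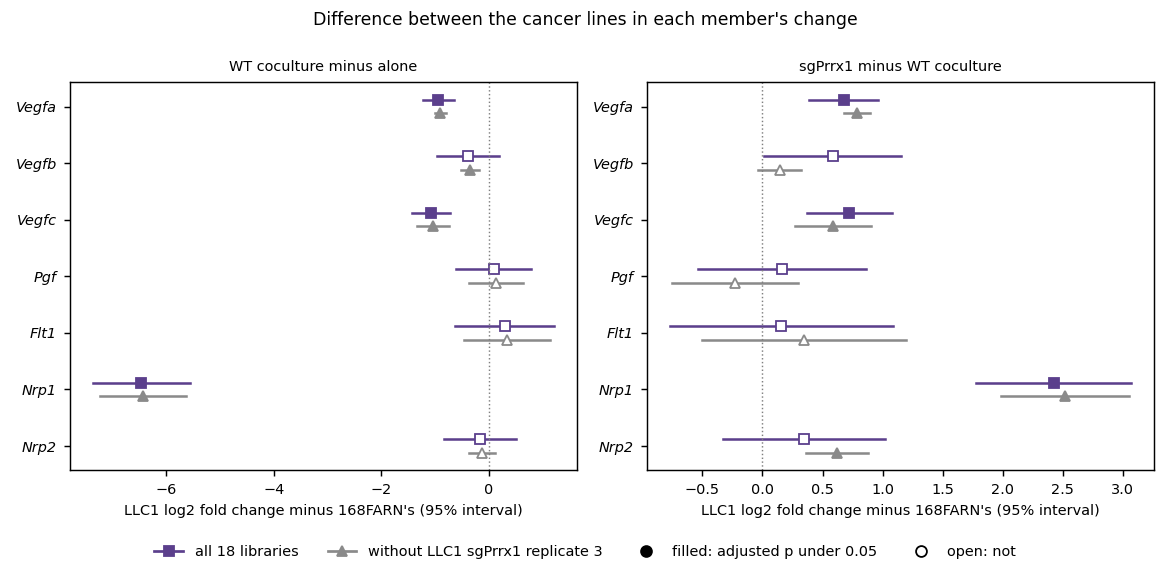
LLC1 log2 fold change minus that of 168FARN (x axis, with 95% intervals) for the 7 tested genes (y axis), with all 18 libraries and without LLC1 sgPrrx1 replicate 3; filled symbols passed an adjusted p of 0.05. Nrp1, Vegfa and Vegfc lie left of 0 for WT against alone and right of 0 for sgPrrx1 against WT.

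Levels were compared between genes as CPM per kilobase (kb) of exon. In 168FARN alone Nrp2 was highest at 64.2 ± 1.22 CPM per kb (SD, n = 3), then Vegfb at 54.8 ± 1.3, Vegfa at 19.2 ± 0.457, Pgf at 3.75 ± 0.142, Vegfc at 1.51 ± 0.212 and Flt1 at 0.0785 ± 0.00545. Kdr, Nrp1 and Flt4 followed below 0.01 CPM per kb with ranges that overlap. With WT fibroblasts Vegfb, at 57.0 to 63.2 CPM per kb, stood above Nrp2 at 45.9 to 47.5, where in cells alone the order was reversed, at 53.3 to 55.8 and 62.9 to 65.3. In LLC1 alone the order was Nrp2 at 118 ± 18.4, Vegfb at 57.1 ± 2.21, Vegfa at 26.9 ± 0.895, Vegfc at 3.28 ± 0.282, Pgf at 1.78 ± 0.516 and Nrp1 at 1.55 ± 0.0846 CPM per kb, of which the last 2 overlapped. Kdr in LLC1 with WT reached 0.829 ± 0.0683 CPM per kb, between Nrp1 at 1.47 ± 0.209 and Flt1 at 0.214 ± 0.0633.

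Within the ligands, the Vegfa share of the summed CPM per kb in 168FARN was 24.3% ± 0.399 alone, 35.0% ± 1.31 with WT and 25.3% ± 0.723 with sgPrrx1 fibroblasts. Vegfb took most of the rest, at 69.1%, 57.4% and 67.0%. In LLC1 the Vegfa share was 30.2% ± 1.59 alone and 33.4% ± 1.83 with WT, and with sgPrrx1 it ran from 15.3% in replicate 3 to 33.8%. Among the kinase receptors of LLC1, Kdr made up 78.2% ± 4.48 with WT against 0.702% alone and 6.76% with sgPrrx1, and Flt1 most of the rest. The receptors together reached 1.07 CPM per kb at most as a group mean, beside 78.8 to 105 for the ligands. Nrp2 was over 97% of the neuropilins in every library.

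**Figure D4:**
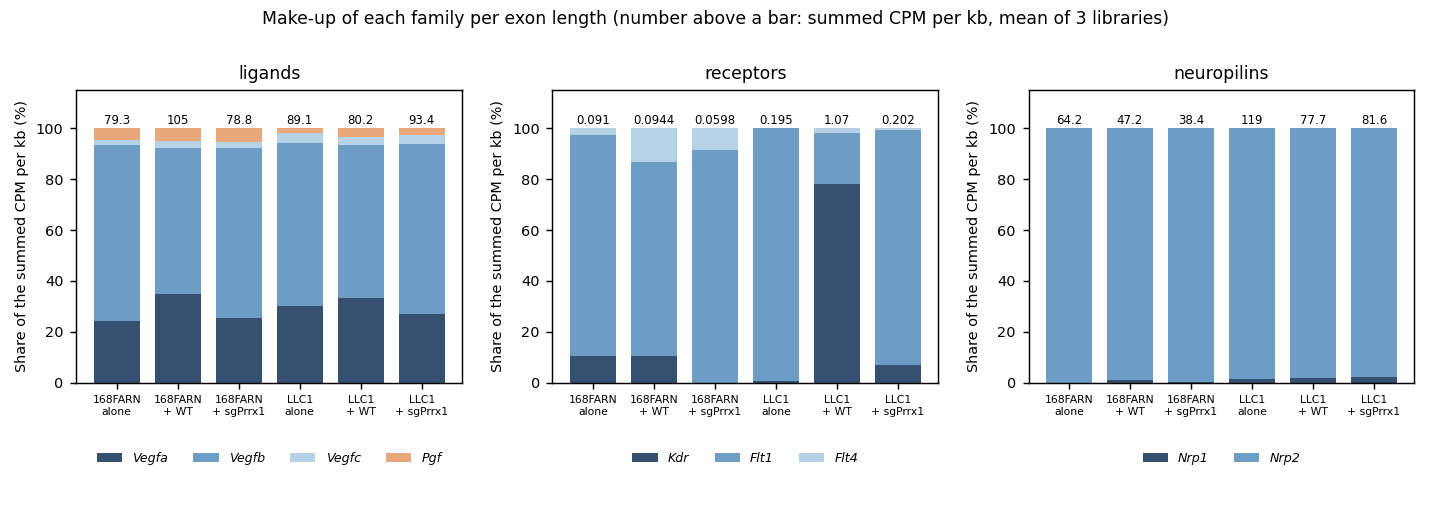
Share of each gene (y axis, percent) in the summed CPM per kb of the ligands, receptors and neuropilins, as the mean of 3 libraries per group (x axis); the number above a bar is the summed CPM per kb. Vegfa widens from 24.3% to 35.0% in 168FARN with WT fibroblasts, and Kdr fills 78.2% of the receptor bar in LLC1 with WT fibroblasts.

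Genes that act with the VEGFs moved in both directions in 168FARN. With WT fibroblasts, of 12 tested VEGF family relatives and receptor partners 6 rose and 3 fell, with a median log2 fold change of 0.27 against 0.01 for all genes. Itgb3, the beta subunit of the vitronectin receptor, rose from 0.0104 ± 0.0180 to 2.55 ± 0.203 CPM, and Cdh5 (VE-cadherin), which forms a complex with VEGFR2 in endothelium, from 0.277 ± 0.131 to 5.94 ± 0.712 CPM. Of 6 tested class 3 semaphorins, the other neuropilin ligands, 2 rose and 3 fell, among them Sema3a by a log2 fold change of 0.48 ± 0.03 and Sema3c by -0.78 ± 0.05. Of 36 VEGF signalling proteins 19 rose and 7 fell (median 0.13), Src rising by 0.60 ± 0.03 and Pik3r1, a regulatory subunit of PI3 kinase, changing by -1.01 ± 0.05. In each case 64.1% of all genes changed.

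Of 15 tested angiopoietins and other angiogenic factors of 168FARN, 12 rose and 2 fell with WT (median 0.84), where, as for the next 2 lists, 64.1% of all genes changed (33.4% higher, 30.7% lower). Angptl4, a lipase inhibitor induced by hypoxia, rose by 1.35 ± 0.06, from 10.6 ± 0.744 to 27.0 ± 1.25 CPM, and Angpt2, which antagonises the Tie2 receptor, changed by -1.27 ± 0.11. Of 12 VEGF-binding or angiostatic proteins 8 rose and 2 fell (median 0.59), among them Dcn (decorin) and Timp3, a VEGFR2 antagonist, which went from 0.275 and 0.0104 CPM to 92.8 and 34.5. Dcn is also in the fibroblast marker list below. Of 20 hypoxia regulators and targets 13 rose and 3 fell (median 0.40), Hif1a by 0.79 ± 0.03, from 328 ± 4.23 to 567 ± 16.7 CPM, and Pfkfb3, a glycolytic regulator, by 1.44 ± 0.11.

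Between sgPrrx1 and WT coculture of 168FARN, where 60.0% of all genes changed, 10 of the 12 angiostatic proteins were lower and 1 higher (median -0.57), including Timp3 with a log2 fold change of -2.73 ± 0.07 and Thbs2 (thrombospondin-2) with -2.04 ± 0.04. Of the 12 VEGF relatives 9 were lower and 1 higher (median -0.33), of the 15 angiogenic factors 7 and 3 (median -0.35), of the 20 hypoxia genes 9 and 6 (median -0.14), of the 36 signalling proteins 15 and 12 (median -0.03) and of the 6 semaphorins 3 and 1 (median -0.21). The median of all genes was -0.03. Hif1a, the hypoxia-inducible factor subunit, was lower (log2 fold change -0.57 ± 0.03), at 382 ± 5.21 CPM. Hgf, a ligand of the Met receptor, was higher with sgPrrx1, at 10.1 ± 0.598 against 6.52 ± 0.946 CPM, and was at 0.0205 CPM in cells alone.

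For sgPrrx1 against 168FARN alone, where 49.7% of genes changed, 3 of the 12 VEGF relatives were higher and 6 lower (median -0.08), of the semaphorins 1 and 2 (median -0.03), of the signalling proteins 17 and 6 (median 0.09), of the angiogenic factors 9 and 4 (median 0.57), of the angiostatic proteins 7 and 2 (median 0.28) and of the hypoxia genes 11 and 5 (median 0.12). Ndrg1, a hypoxia-induced gene, rose by 0.68 ± 0.02 and Ereg (epiregulin) by 0.81 ± 0.03. Plxnd1, a semaphorin receptor of vessels, was lower (-0.44 ± 0.03).

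In LLC1 the relatives that changed were fewer with all libraries. Vegfd, the lymphangiogenic ligand closest to VEGF-C, rose with WT by 0.89 ± 0.09 (adjusted p = 0.00231), from 6.31 ± 0.414 to 11.7 ± 0.513 CPM, and was at 12.0 ± 0.491 with sgPrrx1. Plxnd1 was lower with WT, with a log2 fold change of -0.60 ± 0.09 (adjusted p = 0.00762), a call lost without alone replicate 2 (adjusted p = 0.0507). In all, 2 of 12 relatives were higher and 1 lower with WT, 1 and 1 of 6 semaphorins, 1 and 0 of 37 signalling proteins, 2 and 1 of 12 angiogenic factors, 3 and 1 of 12 angiostatic proteins and 0 of 19 hypoxia genes, where 8.83% of all genes changed. Of those 19, 4 had an unadjusted p under 0.05 and DESeq2 called 5, and the share of all genes by either criterion is not given. Among edgeR's calls with WT, those of Sema3c and Cdc42, a signalling protein, were lost in 10 of 14 alternatives. Those of Sema3f, Apln, Ccn1 and Timp3 were lost in 6 of 14, and those of Vegfd, Angptl4, Fgfr1, Thbs1 and Dcn in 0. Angptl4 rose by 3.22 ± 0.20, to 17.6 ± 1.03 CPM, and Thbs1 (thrombospondin-1), an inhibitor of angiogenesis, by 4.92 ± 0.53, from 1.18 ± 0.257 to 35.9 ± 1.96 CPM. Without sgPrrx1 replicate 3 these 4 genes also passed, at 0.90 for Vegfd, -0.59 for Plxnd1, 3.23 for Angptl4 and 4.93 for Thbs1. Without sgPrrx1 replicate 3 the same lists gave 4 and 6, 2 and 2, 8 and 8, 4 and 1, 3 and 4, and 4 and 4, where 44.2% of genes changed.

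For sgPrrx1 against WT of LLC1, 0 genes of the 6 lists passed edgeR's test with all libraries, where 0.0544% of genes did. An unadjusted p under 0.05 was found for 3 relatives, 2 semaphorins, 7 signalling proteins, 2 angiogenic factors, 4 angiostatic proteins and 3 hypoxia genes, and DESeq2 called 2, 1, 1, 1, 3 and 3. The share of all genes by either criterion is not given, so these counts cannot be set against other genes. Without replicate 3 there were 3 higher and 0 lower of the VEGF relatives, 1 and 1 semaphorins, 1 and 0 signalling proteins, 2 and 0 angiogenic factors, 2 and 2 angiostatic proteins and 0 and 3 hypoxia genes, where 5.69% of genes changed. Thbs1 and Timp3 were lower, with log2 fold changes of -2.92 ± 0.14 (adjusted p = 5.53e-05) and -3.35 ± 0.38 (adjusted p = 0.00724). For sgPrrx1 against alone with all libraries, 2 and 0 relatives, 0 semaphorins, 1 and 0 signalling proteins, 2 and 0 angiogenic factors, 1 and 1 angiostatic proteins and 0 and 1 hypoxia genes were higher and lower, where 4.32% of all genes changed. Vegfd and Gpc1 (glypican-1) were among the first, and Gpc1 (adjusted p = 0.0411) lost its call in 11 of 14 alternatives, with adjusted p up to 0.185. Hras and Ccn1 lost theirs in 10 of 14, Angptl2 in 9, Bnip3 in 8, Vegfd in 1 and Angptl4 and Dcn in 0. For the semaphorins 2 had an unadjusted p under 0.05 and DESeq2 called 1, again without the share of all genes. Without replicate 3 the 6 lists gave 4 and 1, 1 and 2, 8 and 3, 5 and 1, 2 and 2, and 1 and 5 for sgPrrx1 against alone, where 26.7% of genes changed.

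Fibroblast markers moved with the groups. The summed level of 17 markers in 168FARN was 304 to 307 CPM in cells alone, 1441 to 1543 with WT and 447 to 458 with sgPrrx1 fibroblasts, and 13 of 15 tested rose and 1 fell with WT, where 64.1% of all genes changed, while 13 were lower and 1 higher with sgPrrx1 than with WT, where 60.0% changed. With sgPrrx1 against alone 9 of the 15 rose and 1 fell, where 49.7% changed. Postn and Thy1 were at 0 in cells alone, 22.1 ± 0.891 and 0.485 ± 0.0686 CPM with WT, and 0.0223 ± 0.0386 and 0 CPM with sgPrrx1. Col1a2 was at 0.103 ± 0.0211, 148 ± 7.73 and 12.9 ± 1.57 CPM, the order of groups seen for Nrp1. Vegfa was also highest with WT, but sgPrrx1 against alone did not pass the test for Vegfa. Fap was at or near 0 in all 3 groups. Other markers of 168FARN were not highest with WT. Twist2 was at 41.5, 39.1 and 55.9 CPM, Mfap5 at 10.6, 12.9 and 13.6 and Pdgfrb at 43.0, 40.6 and 26.7 (alone, WT, sgPrrx1). In LLC1 the sum was 1897 to 1989 alone, 1442 to 1475 with WT and 1820 to 1884 with sgPrrx1, of which Col3a1 made up most, and without Col3a1 it was 340 to 364, 379 to 394 and 412 to 427. Of 12 tested there 4 rose and 2 fell with WT, where 8.83% of all genes changed, and without sgPrrx1 replicate 3 these were 6 and 4 of 13, where 44.2% changed. Between sgPrrx1 and WT, 3 of the 12 were lower and 0 higher with all libraries, Col1a1, Col1a2 and Fbln2, where 0.0544% of all genes changed. Without replicate 3, 3 of 13 were lower and 3 higher, where 5.69% changed. With sgPrrx1 against alone 4 of 12 rose and 1 fell, where 4.32% changed, and 5 and 1 of 13 without replicate 3, where 26.7% changed. The markers did not move together. Col1a1, Col1a2 and Fbln2 were at 0.375, 0.0296 and 0.0331 CPM in LLC1 alone, 8.6, 8.68 and 6.08 with WT and 0.681, 0.264 and 0.655 with sgPrrx1, the same order of groups as Kdr. Dcn had that order too, at 2.85, 30.1 and 21.4 CPM. Others were lowest with WT, among them Pdgfrb at 5.59, 2.38 and 3.01 CPM, Lum at 2.88, 1.74 and 2.45 and Loxl1 at 2.41, 1.59 and 2.03 (alone, WT, sgPrrx1). Dpt, at 10.99, 13.9 and 30.3 CPM, and Twist2, at 55.8, 67.3 and 80.3, were highest with sgPrrx1. These markers were picked after their values were seen. The part of fibroblast RNA in the values of Kdr, Nrp1 and the ligands was not tested.

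Of the 16 endothelial markers in LLC1, 14 had means under 1 CPM in every group, and Eng and Egfl7 were higher. Eng was at 44.2 ± 2.0, 46.8 ± 2.49 and 67.1 ± 19.3 CPM and Egfl7 at 12.3 ± 0.573, 10.1 ± 1.12 and 13.0 ± 6.73 CPM (alone, WT, sgPrrx1). Tie1, Emcn, Cldn5, Erg, Sox17 and Robo4 had 0 counts in the 3 WT libraries, and Pecam1 had at most 6 counts in a library, Cdh5 at most 11 and Tek at most 5, beside 408 to 496 for Kdr. The summed level was 55.3 to 60.1 CPM alone, 56.1 to 59.5 with WT and 65.0, 66.2 and, in replicate 3, 111 with sgPrrx1 fibroblasts, most of it Eng, which other cells also make. In 168FARN the sum was 49.0 to 52.3, 58.3 to 62.2 and 47.4 to 48.1 CPM, with Emcn, Cldn5, Erg, Sox17 and Sox18 at 0 in all 9 libraries. Of 8 tested there 3 rose and 1 fell with WT, where 64.1% of all genes changed, and 3 were lower and 1 higher with sgPrrx1 than with WT, where 60.0% changed. Cdh5 was at 0.277 ± 0.131, 5.94 ± 0.712 and 3.90 ± 0.284 CPM, Eng at 19.3 ± 0.988, 25.5 ± 1.15 and 19.7 ± 0.563 and Egfl7 at 0.0449 ± 0.0468, 0.385 ± 0.194 and 0.276 ± 0.134 (alone, WT, sgPrrx1). Other markers went otherwise. In the same order of groups, Vwf was at 3.10 ± 0.281, 2.07 ± 0.486 and 3.48 ± 0.811 CPM and Plvap at 27.0 ± 1.88, 26.2 ± 2.58 and 19.7 ± 1.61. Among the lymphatic markers Prox1 was at 0 in 168FARN and Pdpn, which is not restricted to lymphatics, made up nearly all of the sum, at 997 to 1021, 974 to 1071 and 1407 to 1416 CPM in 168FARN and 0.599 to 0.808, 4.41 to 6.00 and 0.905 to 1.61 in LLC1. In LLC1 only Pdpn was tested, and it was highest with WT as for Kdr. Pdpn was higher with WT than alone, where 8.83% of all genes changed. With sgPrrx1 it was lower than with WT, where 0.0544% changed. Pericyte markers in 168FARN summed to 0.123 to 0.623 CPM alone, 1.504 to 1.86 with WT and 0.267 to 0.876 with sgPrrx1. All 5 had means under 1 CPM in every group. Of 2 tested, 2 rose with WT, where 64.1% of all genes changed (33.4% higher). With sgPrrx1, 1 was lower than with WT, where 60.0% changed (33.1% lower). For sgPrrx1 against alone, 0 of 2 passed, where 49.7% changed. Cspg4 was at 0.124, 0.835 and 0.307 CPM and Notch3 at 0.239, 0.810 and 0.139 (alone, WT, sgPrrx1). In LLC1 the pericyte sum, nearly all Notch3, was 4.43 to 4.64, 2.31 to 3.10 and 2.12 to 3.57 CPM. Leukocyte markers, mostly Cd68 and, in 168FARN, Lyz2, summed to 47.6 to 51.7, 29.0 to 31.7 and 35.0 to 36.0 CPM in 168FARN. In LLC1 Cd68 was at 16.2 ± 0.704, 36.6 ± 0.946 and 46.0 ± 15.2 CPM, and Cd3e was at 0 in all 18 libraries. Epithelial markers in 168FARN, mostly Krt8, summed to 323 to 345, 359 to 388 and 416 to 422 CPM, and Krt19 was at 0, 3.09 ± 0.162 and 0 CPM. In LLC1 the epithelial sum was 0 to 0.237, 0.633 to 0.702 and 0 to 0.164 CPM, highest with WT as for Kdr. The part of these cell types in the values of Kdr, Nrp1 and the ligands was not tested.

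**Figure D5:**
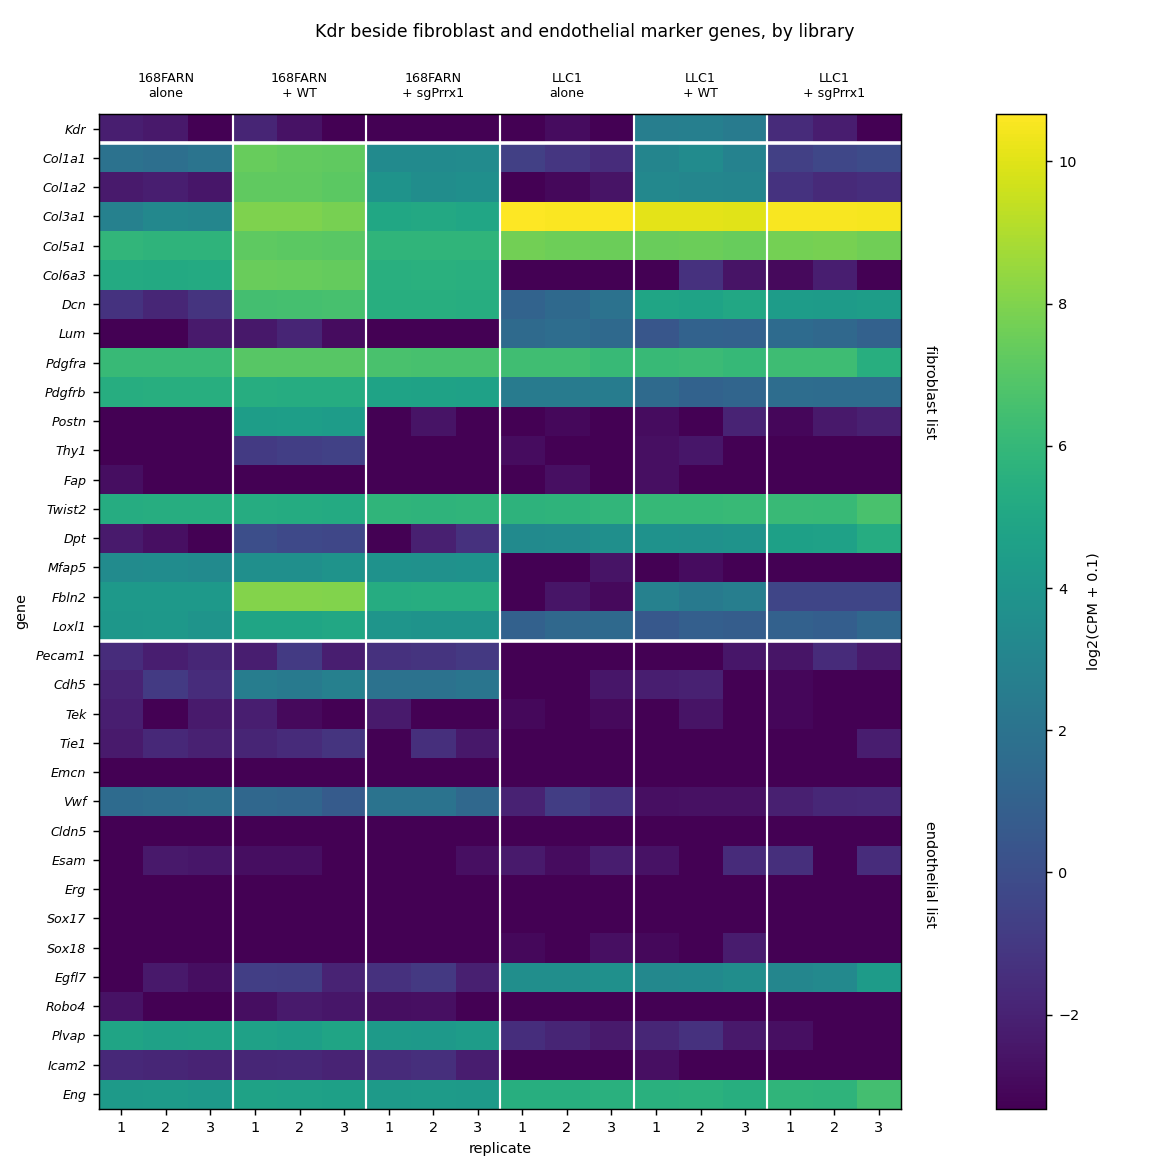
Levels as log2(CPM + 0.1) (colour) of Kdr, 17 fibroblast and 16 endothelial markers (rows) in the 18 libraries (columns, replicates 1 to 3 by group). Kdr, Col1a1, Col1a2 and Fbln2 are brighter in the 3 LLC1 libraries with WT fibroblasts than in the other LLC1 libraries, and Emcn, Cldn5, Erg and Sox17 are at 0 throughout. Col3a1 and Pdgfrb have lower values in those 3 libraries than in the other LLC1 libraries.

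The genes whose pattern over the 9 LLC1 libraries was most like Kdr were Armcx3, Pi15, Neto2, Meg3 and Slc43a3, with Pearson r of 0.998, 0.995, 0.993, 0.993 and 0.992 in log2(CPM + 0.1). The libraries fall into a WT group and the rest, so these values describe a shared contrast. Armcx3, a mitochondrial outer membrane protein, was at 0 CPM alone, 0.594 ± 0.0149 with WT and 0.0345 ± 0.0303 with sgPrrx1, and Pi15, a secreted peptidase inhibitor, at 0, 2.02 ± 0.538 and 0.0486 ± 0.0422. Meg3, an imprinted noncoding RNA, was at 0, 0.497 ± 0.118 and 0.0267 ± 0.0284 CPM. In 168FARN, where Kdr had 0 to 12 counts, Armcx3 was at 0, 4.41 ± 0.387 and 0.676 ± 0.139 CPM in the same order of groups, Pi15 at 0, 3.85 ± 0.565 and 0.335 ± 0.205, and Slc43a3, a membrane transporter, at 1.48 ± 0.162, 12.7 ± 0.737 and 4.66 ± 0.745. Meg3 had 0 counts in all 9 libraries of 168FARN.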

How the data were processed

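RNA of sorted cancer cells was sequenced from 18 libraries as paired 100 base reads (TruSeq RNA v2), and the authors deposited a table of whole-number read counts per gene for each line. Per the labels the reads were trimmed with Trimmomatic, aligned to mm10 with STAR and counted with HTSeq. Strand handling is not given in the sources used here. The members and gene lists were chosen with earlier results of these data known. Counts were scaled with TMM factors to CPM, filtered with filterByExpr, and tested with edgeR 4.0.16 (quasi-likelihood test, R 4.3.3, two-sided, Benjamini-Hochberg adjustment over all genes kept, threshold 0.05), with the 3 groups of a line in one fit and both lines in one fit for the difference between them. The test was tried on simulated data first. All replicate pairs differed beyond sampling noise. Alternatives were DESeq2 1.42.0, no scaling factors, no filter, only the 2 groups compared, a replicate block and each library left out.

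Same-numbered samples of 168FARN did not deviate together (correlations of -0.0734 to 0.0627 over 9 pairs). Those of LLC1 alone and LLC1 sgPrrx1 did (0.131, 0.249 and 0.419), while pairs with LLC1 WT did not all. From each list the genes named are among the 4 with the largest fold change of those that passed the test and had a mean count of 50 or more. Levels per kb use exon lengths of the NCBIM37 annotation, and positions the mm10 build. The likeness to Kdr was Pearson's r of log2(CPM + 0.1). The floor was 3 counts. Ratios of summed counts have exact 95% intervals for counting error only.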

Additional observations from a re-analysis of the deposited data

Results flagged for a closer look

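The response to fibroblasts differed between the lines, by the test of the difference itself, for the same genes in 2 contrasts that share the WT libraries. For WT coculture against alone, LLC1 minus 168FARN, the log2 differences were -6.47 for Nrp1, -0.94 for Vegfa and -1.08 for Vegfc. For sgPrrx1 against WT coculture they were 2.43 for Nrp1, 0.68 for Vegfa and 0.72 for Vegfc. Line, fibroblast type and count table cannot be told apart.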

How the results depend on the processing

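Without LLC1 sgPrrx1 replicate 3, 4 of the 7 tested genes other than Kdr changed in LLC1 with WT against alone instead of 0, 1 instead of 0 with sgPrrx1 against alone, and Vegfb in the latter turned to -0.26 on the log2 scale (-0.26 to 0.35 over the libraries left out); the spread between replicates was smaller in that fit. With only the 2 groups compared, 3 changed in LLC1 with WT, and the call of Vegfd for sgPrrx1 against alone was lost (adjusted p = 0.0687). Leaving out 1 library at a time gave 5 to 6, 5 to 7 and 2 to 3 changed genes in 168FARN (WT against alone, sgPrrx1 against WT, sgPrrx1 against alone), 0 to 4, 0 to 0 and 0 to 1 in LLC1, and 3 to 4 in both tests between the lines. Apart from the fit without LLC1 sgPrrx1 replicate 3, the share of all genes called is not given for these fits or the block below. Their counts of changed genes therefore cannot be set against other genes. Over all genes, the same library moved the calls from 1137 to 5779 for WT against alone, from 556 to 3495 for sgPrrx1 against alone and from 7 to 745 for sgPrrx1 against WT in LLC1, and from 4230 to 7681 and from 2771 to 6517 between the lines.

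A block on the replicate number gave counts of changed genes of 6, 6 and 2 in 168FARN, 0, 0 and 0 in LLC1 and 3 and 3 between the lines, and no member's call changed. Of 2170 values under the alternatives, 2050 kept their direction and side of the threshold, 105 lost the threshold, 14 gained it and 1 reversed. Depth limits Flt4 and, outside LLC1 with WT, Kdr, which rest on a few counts.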
